A study of Mus musculus with 27 samples.

Results

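Lin28a, Lin28b, L1td1, Trim71, Dppa5a and Tdh are genes of early embryonic cells, and 5 of them encode proteins that bind RNA or act with such proteins. They were taken by their gene symbols in the GENCODE vM21 mouse annotation, matched through the Ensembl identifiers of the deposited tables. All 6 were found among the 37332 genes of the deposited count table and among the 53379 genes of the deposited table of transcript levels (TPM, transcripts per 1000000). The study sequenced RNA from 3 fractions of mouse cells at 3 stages of neuronal differentiation, with 3 biological replicates for each of the 9 combinations, which gives 27 libraries. The stem cell group (mESC) was the established E14 embryonic stem cell line, grown on gelatin with leukaemia inhibitory factor (LIF). The progenitor group (mNPC) was a cultured neuronal progenitor line given the growth factors EGF and FGF in serum-free medium with B27. The neuron group (mCtx) was primary cortical neurons cultured for 5 days. No genetic change, drug or transgene is described for any group. The strain of the animals, their age in plain words and the number of animals pooled are not given in the sources used here. The 3 fractions were RNA bound to chromatin (Chr), RNA dissolved in the nucleoplasm (Nuc) and cytoplasmic RNA (Cyto). RNA longer than 200 nt was kept, ribosomal RNA was depleted, and no selection for poly(A) tails was made, so unfinished transcripts are read as well as mature ones. Mature microRNAs, which are far shorter, are outside this measurement.

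LIN28A and LIN28B are paralogous proteins with a cold shock domain and a pair of zinc knuckles. They bind precursors of the let-7 microRNA family and block their maturation, and LIN28A recruits enzymes that add uridines to the precursor. Mature let-7 in turn pairs with sites in the 3′ untranslated regions (3′UTRs) of its targets, which include Lin28a, Lin28b and Trim71, so LIN28 and let-7 restrain each other. TRIM71, also called LIN41, is a protein of the TRIM-NHL family that represses messenger RNAs and is a classic let-7 target. L1TD1 is an RNA-binding protein that descends from the first open reading frame of the LINE-1 transposon. DPPA5, also called ESG1, is a small protein with a KH-like domain found in pluripotent cells. TDH, threonine dehydrogenase, is a mitochondrial enzyme that splits threonine for glycine and one-carbon metabolism in mouse embryonic stem cells. It is a metabolic enzyme and is not known as a classical RNA-binding protein.

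The microRNA sequences show the pairing on which this circuit rests. The 9 mature let-7 family members with a RefSeq entry (build GRCm38.p6), made from 11 genes, shared 1 seed, GAGGUAG. Below are 3 of them, with the seed (bases 2 to 8) in capitals, chosen because their genes are described later.
mmu-let-7c-5p: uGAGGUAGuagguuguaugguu
mmu-let-7d-5p: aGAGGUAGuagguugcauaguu
mmu-miR-98-5p: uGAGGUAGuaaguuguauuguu
The letters opposite this seed in a target are CTACCTC, and a site followed by A forms the longer match CTACCTCA. In the annotated 3′UTR of the transcript with the longest coding sequence, Trim71 held 4 such sites, all with the A, in 5512 bases. Lin28a held 2 sites, both with the A, in 2775 bases, and Lin28b held 4 sites, 1 with the A, in 4445 bases. No match was found in the 184 bases of Dppa5a or the 360 bases of Tdh, and the chosen L1td1 transcript has no annotated 3′UTR. All 10 sites are printed because they carry the difference between the members, each as 22 bases of the sense strand with CTACCTC in capitals. In mm10 (GRCm38) coordinates they lie on the minus strand, each within 1 exon. The Lin28a sites are chr4:134005189-134005210 and chr4:134004551-134004572. The Lin28b sites are chr10:45381022-45381043, chr10:45378648-45378669, chr10:45378476-45378497 and chr10:45377060-45377081. The Trim71 sites are chr9:114512472-114512493, chr9:114512376-114512397, chr9:114509047-114509068 and chr9:114509021-114509042. Within each gene they are printed in that order.
Lin28a site 1: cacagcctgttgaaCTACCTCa
Lin28a site 2: agatcgccacaaacCTACCTCa
Lin28b site 1: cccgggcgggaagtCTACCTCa
Lin28b site 2: atacttgttagtaaCTACCTCt
Lin28b site 3: tttacagcacatggCTACCTCc
Lin28b site 4: aatgatggcaccgaCTACCTCt
Trim71 site 1: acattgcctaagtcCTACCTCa
Trim71 site 2: gtgataatttctatCTACCTCa
Trim71 site 3: ttagtatggattttCTACCTCa
Trim71 site 4: tggcaaaaagttgtCTACCTCa
Of 20690 genes with an annotated 3′UTR, 8.0% held CTACCTC and 2.7% held CTACCTCA. Long 3′UTRs hold such short words more often. Among genes with a 3′UTR at least as long as that of Trim71, 40.1% held the shorter and 14.2% the longer match. The corresponding shares were 23.8% and 8.8% at the length of Lin28a, and 34.0% and 12.3% at that of Lin28b. Only 2 of the 20690 genes, Trim71 among them, held 4 or more copies of CTACCTCA.

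On the other side of the circuit, LIN28 zinc knuckles are known to bind GGAG in the loop of let-7 precursors. The loop between the arms held GGAG in 9 of the 12 let-7 family precursors in RefSeq, all but Mirlet7b, Mirlet7c-2 and Mir98. The pair of let-7c precursors is shown because it makes the same mature sequence from a loop with and a loop without this word, in capitals where present. Mirlet7c-1 lies at chr16:77599657-77599750 on the plus strand and Mirlet7c-2 at chr15:85706603-85706697 on the plus strand (GRCm38.p6).
Mirlet7c-1: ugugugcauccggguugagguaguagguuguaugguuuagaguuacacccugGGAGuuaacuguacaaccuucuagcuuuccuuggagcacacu
Mirlet7c-2: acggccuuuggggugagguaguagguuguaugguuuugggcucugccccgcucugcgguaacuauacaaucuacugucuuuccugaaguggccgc
A match to either word is a description of the letters and not a measured binding site.

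The promoters of Lin28a and Lin28b are printed because these paralogs had the most unlike patterns among the members. RefSeq (GRCm38.p6) gave promoters for 4 members, Lin28a, Lin28b, L1td1 and Trim71, and none for Dppa5a or Tdh. The 250 bases before the start are shown, in the direction of the gene. They come from chr4:134018817-134019066 on the minus strand for Lin28a and chr10:45470202-45470451 on the minus strand for Lin28b.
Lin28a promoter: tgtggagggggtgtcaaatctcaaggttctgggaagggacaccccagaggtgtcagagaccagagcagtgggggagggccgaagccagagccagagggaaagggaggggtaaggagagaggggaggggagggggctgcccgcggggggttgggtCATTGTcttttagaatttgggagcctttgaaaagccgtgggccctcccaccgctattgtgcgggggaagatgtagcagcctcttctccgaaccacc
Lin28b promoter: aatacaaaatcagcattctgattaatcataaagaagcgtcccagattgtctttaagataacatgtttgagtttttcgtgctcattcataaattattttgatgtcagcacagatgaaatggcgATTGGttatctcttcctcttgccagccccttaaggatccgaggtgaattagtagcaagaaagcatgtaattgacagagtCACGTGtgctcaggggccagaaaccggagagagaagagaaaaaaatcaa
Capitals mark a SOX motif (CATTGT) 96 bases before the Lin28a start. In Lin28b they mark an E-box (CACGTG) 49 bases and a CCAAT box (here on the other strand, ATTGG) 128 bases before the start. The search also covered the octamer ATGCAAAT and the TATA box TATAAA, on both strands, and the motifs do not overlap. Of all 32851 RefSeq promoters of this length, 10.7% held the SOX motif, 6.0% the E-box, 33.8% the CCAAT box, 1.6% the octamer and 12.4% the TATA box. The GC content was 61.2% in Lin28a, 39.2% in Lin28b, 57.6% in L1td1 and 62.8% in Trim71, against a median of 52.4% over all promoters. Trim71 had 17 CpG pairs in this window, L1td1 11, Lin28a 7 and Lin28b 6, against a median of 6. The L1td1 and Trim71 windows held none of these letters.

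In the deposited coordinates (mm10), Lin28a spans chr4:134003330-134018841 on the minus strand and Lin28b spans chr10:45376620-45470201 on the minus strand. L1td1 spans chr4:98726734-98738480 on the plus strand and Trim71 spans chr9:114511275-114564369 on the minus strand. Dppa5a spans chr9:78367052-78368177 and Tdh spans chr14:63492347-63509092, both on the minus strand. Counts were made over whole gene spans, introns included. Exons cover 55.0% of the 1126 bases of Dppa5a. The share was 25.8% for Lin28a, 27% for L1td1 and 15.6% for Tdh. The vM21 exons of Lin28b cover 9065 bases and those of Trim71 9332, against counted spans of 93582 and 53095 bases. Both vM21 genes run beyond their counted spans, so no share of exons is given for them. In vM21 the last exon of Trim71 runs on to position 114507133, so the counted span leaves out the 3′ end of the gene, with Trim71 sites 3 and 4. Lin28b runs in vM21 to position 45486395 at its 5′ end, a stretch that is not counted either. The Lin28b promoter printed above lies within that stretch. Gm13061 overlaps the first 695 bases of Lin28a on the opposite strand, with a group mean of at most 0.237 counts per 1000000 in the 9 groups. Gm17232 lies within Tdh on the opposite strand, with a group mean of at most 0.636 counts per 1000000 but at 30.8 ± 4.17 TPM (SD, n = 3) in mESC chromatin. Whether counting used the strand is not given in the sources used here, so reads from a gene and its antisense partner cannot be told apart.

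The 27 libraries held between 11249862 and 19871198 counts. Levels below are counts per 1000000 (CPM), with counts divided by a library size adjusted by the TMM method, so they compare shares of each fraction's RNA and not amounts per cell. In such bulk samples, fewer cells of a type and less RNA per cell cannot be told apart. The summed CPM of 12 stem cell markers was 1112 to 4174 in mESC libraries, at most 9.50 in mNPC and at most 5.85 in mCtx. Of these, Pou5f1, Zfp42, Dppa2, Dppa4, Utf1, Fgf4 and Dnmt3l were at 0 in all mNPC and mCtx libraries. The sum of 8 progenitor markers was 1388 to 7207 in mNPC, 240 to 1109 in mCtx and 67.4 to 144 in mESC, and that of 9 neuron markers was 5899 to 9416 in mCtx, 618 to 2121 in mNPC and 151 to 330 in mESC. The 5 markers of the oligodendrocyte lineage summed to 369 to 1920 in mNPC libraries, 27.55 to 160 in mCtx and 4.60 to 41.7 in mESC. The 4 astrocyte markers summed to 87.8 to 285 in mNPC, 19.5 to 37.7 in mCtx and 3.90 to 29.9 in mESC. The 4 microglia markers summed to 13.2 to 41.6 in mCtx and 24.7 to 76.0 in mESC. In mCtx the 4 endothelial markers reached at most 4.55 and the 4 fibroblast markers at most 5.42, against 385 and 26.2 in mESC. Replicate 1 of mESC stood apart in each fraction: its Spearman correlation with the other replicates over genes was 0.953 to 0.980, against 0.987 to 0.994 between replicates 2 and 3. A library with no read of a gene is given a floor of 3 counts, which came to 0.146 to 0.273 CPM. Intervals on folds are exact 95% intervals on total counts, and floors and intervals cover counting error only. Each edgeR SE was calculated back from the F statistic of its test, as the absolute log2 fold change over the square root of F. At few counts such an SE can be smaller than the counting error. Replicates are labelled biological, with nothing on separate cultures or animals, so p-values measure the spread between these samples.

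Lin28a was abundant in stem cells and nearly absent from the other 2 cell types. In mESC replicates 1, 2 and 3 its level was 22.0, 28.7 and 27.6 CPM in chromatin. The nucleoplasm held 87.2, 177.9 and 198.9 CPM, and the cytoplasm 293, 483 and 441 CPM. Every cytoplasmic mESC library lay above every nucleoplasmic one, and every nucleoplasmic one above every chromatin one. In mNPC the 3 libraries of a fraction together held 11 counts in chromatin, 5 in the nucleoplasm and 3 in the cytoplasm. In mCtx they held 1, 0 and 1 counts. No mNPC or mCtx library of Lin28a reached 10 counts, so it passed the filter on low counts through mESC alone. The p-value that follows therefore adds no support to the counts. In chromatin its level was 117-fold lower in mNPC than in mESC (interval 65.4 to 236), with a log2 fold change of -6.83 ± 0.42 (SE, edgeR quasi-likelihood adjusted p = 4.41e-13). In the cytoplasm the same comparison gave 6886-fold (2356 to 33400), an estimate that rests on 3 counts in mNPC.

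Lin28b, the paralog, was the member with the highest level in neurons, on both the CPM and the TPM scale in chromatin. In mESC its chromatin level was 72.5, 153 and 141 CPM, its nucleoplasmic level 51.8, 83.2 and 92.95 CPM, and its cytoplasmic level 15.1, 27.5 and 27.9 CPM. In mCtx the chromatin libraries held 42.9, 46.0 and 53.6 CPM, the nucleoplasmic ones 26.4, 30.6 and 27.9 CPM, and the cytoplasmic ones 6.31, 6.45 and 5.95 CPM. In mNPC only 3, 1 and 7 counts were found in chromatin, nucleoplasm and cytoplasm, over 3 libraries each. In each fraction the order was mESC, then mCtx, then mNPC, with no overlap between cell types. The order of fractions was the reverse of that of Lin28a, with chromatin highest and cytoplasm lowest by the means of both mESC and mCtx. Of the 12 stem cell markers, 9 were at 0 in these mCtx chromatin and nucleoplasm libraries and 7 in the cytoplasm. In mESC, the chromatin and nucleoplasm libraries overlapped, since chromatin replicate 1 lay below 2 of the nucleoplasmic libraries.

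**Figure D1:**
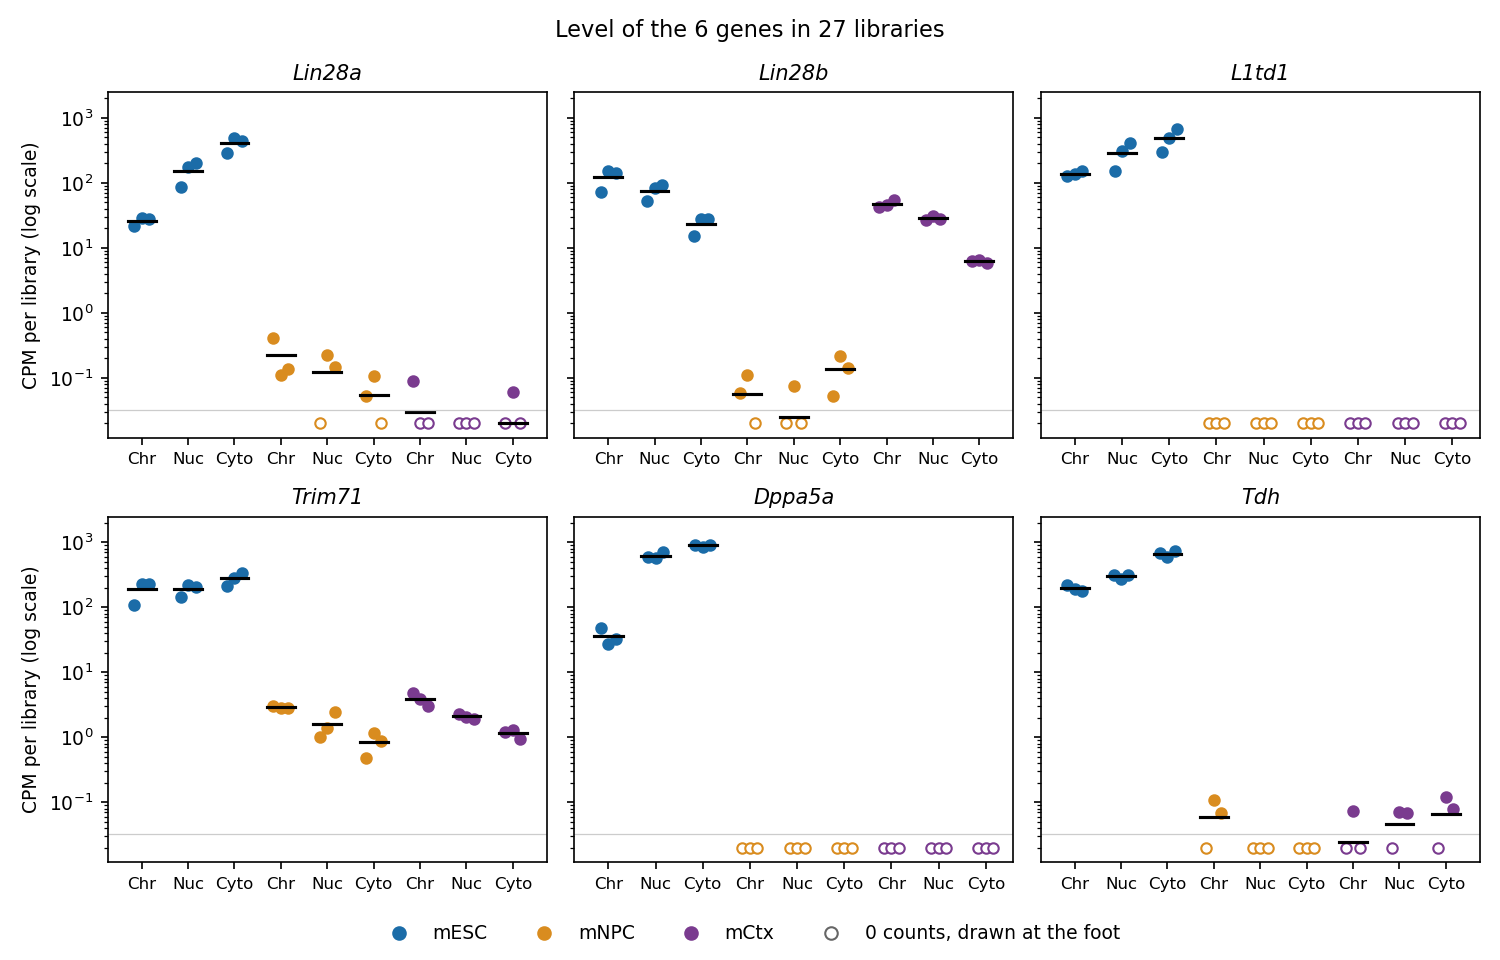
CPM of each gene (log scale) in each of the 27 libraries, grouped by cell type (colour) and fraction, with bars for the means of 3 replicates and open points at the foot for 0 counts. All 6 genes are highest in mESC, and Lin28b in mCtx sits at 5.95 to 53.6 CPM while its mNPC libraries hold at most 4 counts each.

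Trim71, the let-7 target with 4 long matches, fell in both neural cell types but stayed measurable there. The mESC chromatin libraries held 110.5, 230.4 and 226.5 CPM, the nucleoplasmic ones 146, 218 and 205 CPM, and the cytoplasmic ones 217, 282.5 and 338 CPM. For mNPC the chromatin values were 3.02, 2.85 and 2.83 CPM, the nucleoplasmic values 1.00, 1.40 and 2.48 CPM, and the cytoplasmic values 0.473, 1.19 and 0.864 CPM. For mCtx they were 4.77, 3.89 and 3.06 CPM in chromatin, then 2.32, 2.07 and 1.92 CPM in the nucleoplasm, then 1.19, 1.31 and 0.939 CPM in the cytoplasm. The mNPC and mCtx libraries overlapped in the nucleoplasm and cytoplasm, while in chromatin the lowest mCtx library lay just above the highest mNPC one. These neural values rest on 43 to 144 counts per 3 libraries. On the TPM scale, which counts reads over transcripts and not over introns, Trim71 was at 9.49 ± 3.66 in mESC chromatin, 0.123 ± 0.0153 in mNPC chromatin and 0.22 ± 0.0265 in mCtx chromatin (SD, n = 3).

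L1td1, the domesticated LINE-1 gene, had no count in any mNPC or mCtx library. Its mESC level was 125, 139 and 150.3 CPM in chromatin, 152, 308 and 409 CPM in the nucleoplasm and 299, 496 and 664 CPM in the cytoplasm. Chromatin libraries lay below all others, while the nucleoplasm and cytoplasm overlapped. The TPM table listed L1td1 at 0.27 to 0.35 in mCtx chromatin and 0.04 to 0.12 in mNPC chromatin, where the count table has 0. Reads of L1td1 could be shared with LINE-1 copies, and how such reads were counted is not given in the sources used here.

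Dppa5a, the short KH-like gene, was the member with the highest TPM in stem cells and had no count elsewhere. In mESC its chromatin level was 48.7, 27.2 and 32.3 CPM, its nucleoplasmic level 589.6, 579.6 and 706 CPM, and its cytoplasmic level 919, 843 and 923 CPM. The 3 fractions did not overlap. The unprocessed pseudogenes Dppa5b and Dppa5c have no row in the count table and were listed at the same TPM as each other, 7.02 to 9.09 in mESC chromatin and 0.69 to 1.73 in the cytoplasm, so reads could have been split among these copies. They too were listed at 0 in every mNPC and mCtx library.

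Tdh, the threonine dehydrogenase gene, had mESC levels of 222, 194.5 and 175.5 CPM in chromatin, 309, 276 and 310.5 CPM in the nucleoplasm, and 676, 589 and 734 CPM in the cytoplasm. These 3 sets of libraries did not overlap. Over 3 libraries each, mNPC held 3, 0 and 0 counts of Tdh and mCtx 1, 2 and 3 counts, in chromatin, nucleoplasm and cytoplasm. No neural library held more than 2 counts of it.

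Between genes, levels can be compared per length, on the TPM scale. In mESC cytoplasm Dppa5a was highest at 1254 ± 126 TPM (SD, n = 3), followed by Tdh at 195 ± 30.7 and L1td1 at 136 ± 60.6. Lin28a followed at 71.9 ± 21.9 TPM, Trim71 at 32.6 ± 9.24 and Lin28b at 2.47 ± 0.894. The neighbours Tdh and L1td1 overlapped between libraries, as did L1td1 and Lin28a. The other neighbours in this order did not. In mESC chromatin Lin28a was at 11.5 ± 3.51 TPM and Lin28b at 11.9 ± 5.50, with overlapping libraries. In the cytoplasm Lin28a exceeded Lin28b in each library. In mCtx chromatin, Lin28b at 5.84 ± 0.578 TPM was the highest of the 6, and its cytoplasmic level was 0.503 ± 0.125 TPM.

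The comparison of cell types asks which members changed between stages within each fraction. All 6 members were lower in mNPC than in mESC in chromatin, nucleoplasm and cytoplasm, and all 6 were lower in mCtx than in mESC in the same 3 fractions. A member was called where the edgeR quasi-likelihood adjusted p over 18249 tested genes was under 0.05. The cell types differ in most genes, which sets the background for this count. Between mNPC and mESC, 76.5% of tested genes were called in chromatin, 77.2% in the nucleoplasm and 76% in the cytoplasm, in either direction. Between mCtx and mESC the shares were 80.3%, 82.2% and 81.6%. The members' median log2 fold change in the cytoplasm was -14.24 in mNPC, or -11.66 with genes at 0 set to the floor, against a median of -0.07 over all tested genes. In mCtx cytoplasm it was -13.43, or -11.69 with genes at 0 set to the floor, against -0.05. In chromatin the medians with genes at 0 set to the floor were -8.61 in mNPC and -8.15 in mCtx, against -0.18 and -0.38. The nucleoplasm gave -10.26 and -9.91, against -0.14 and -0.15. The members were chosen as stem cell genes, so these medians describe them and test nothing. Lin28a, L1td1, Dppa5a and Tdh passed the filter on low counts through mESC alone, so their calls add no support to the counts. The same holds for the Lin28b calls against mNPC, where no library reached 10 counts of it.

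For the genes with few or no neural counts, the folds are bounds or have wide intervals. L1td1 was at least 760.2-fold lower in mNPC than in mESC chromatin, at least 1189-fold lower in the nucleoplasm and at least 2738-fold lower in the cytoplasm. Dppa5a was at least 200.3-fold, 2639-fold and 5120-fold lower in the same order. In mCtx the bounds were 555-fold, 1315-fold and 2422-fold for L1td1 and 146-fold, 2921-fold and 4529-fold for Dppa5a. Tdh was 3271-fold lower in mNPC chromatin (interval 1119 to 15860) and at least 1269-fold and 3809-fold lower in the mNPC nucleoplasm and cytoplasm. In mCtx cytoplasm Tdh was 10110-fold lower (3458 to 49020). Lin28a in mCtx chromatin was 942-fold lower (169 to 37230), from 1 count. The order of these folds among the members was not tested.

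Trim71 fell less in chromatin than in the cytoplasm. In mNPC it was 64.5-fold lower in chromatin (interval 54.7 to 76.6), 112.0-fold lower in the nucleoplasm (87.6 to 146) and 331-fold lower in the cytoplasm (246 to 458). The log2 fold changes were -6.02 ± 0.29, -6.83 ± 0.31 and -8.37 ± 0.34 (SE). In mCtx the folds were 48.1 (40.7 to 57.2), 89.1 (72.4 to 111) and 238 (182 to 317). The largest adjusted p of these 6 Trim71 comparisons, by edgeR, was 1.34e-15. Lin28b fell by the same measure to very different degrees in the 2 neural cell types. In mNPC it was 2000.0-fold lower in chromatin (684.0 to 9699), 2847-fold lower in the nucleoplasm (511 to 112500) and 170.3-fold lower in the cytoplasm (82.4 to 424). In mCtx it was 2.55-fold lower in chromatin (2.42 to 2.69), 2.63-fold in the nucleoplasm (2.46 to 2.81) and 3.70-fold in the cytoplasm (3.25 to 4.22). The mCtx log2 fold changes were -1.36 ± 0.23, -1.42 ± 0.24 and -1.91 ± 0.26, with edgeR adjusted p of 8.91e-06, 5.4e-06 and 2.59e-07.

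Between the 2 neural cell types, Lin28b was called in each fraction, while Trim71 and Lin28a passed only in the alternatives given below. A member entered this count where a compared group held more than 9 counts in total, which left 3 members in chromatin and 2 each in the nucleoplasm and cytoplasm. Of all tested genes 69.4% were called in chromatin, 71.8% in the nucleoplasm and 66% in the cytoplasm, in either direction. Lin28b was higher in mCtx than in mNPC by 784-fold in chromatin (268 to 3807), 1083-fold in the nucleoplasm (194 to 42820) and 46.0-fold in the cytoplasm (22.1 to 116). Its log2 fold changes were 9.44 ± 0.49, 9.70 ± 0.58 and 5.44 ± 0.51, with edgeR adjusted p of 2.51e-15, 4.14e-14 and 4.05e-10. The counting intervals are wider than these SE values, since mNPC held only 3, 1 and 7 counts. No mNPC library of Lin28b reached 10 counts, so it passed the filter on low counts through mESC and mCtx. Its p-values against mNPC therefore add no support to the counts. The cytoplasmic call was lost on log2(TPM + 1), where the difference was 0.58 (limma adjusted p = 0.101), since Lin28b there is below 1 TPM in both cell types. Trim71 differed by 0.42 ± 0.32, 0.34 ± 0.39 and 0.47 ± 0.46 on the log2 scale, with edgeR adjusted p of 0.245, 0.451 and 0.384. The counting intervals of its mCtx to mNPC ratio were 1.06 to 1.71, 0.901 to 1.76 and 0.914 to 2.13. Trim71 in chromatin passed in 2 alternatives, with 0.68 by DESeq2 (adjusted p = 0.0395) and 0.61 in a fit of the compared groups alone (edgeR adjusted p = 0.0138). In the nucleoplasm Trim71 passed on log2(TPM + 0.1), at 1.01 (limma adjusted p = 0.00319). Lin28a in chromatin, 1 count against 11, gave -2.69 ± 1.52 (edgeR adjusted p = 0.119), and was called with the replicate number as a block, at -2.72 (0.0421), and under total-count scaling, at -3.19 (0.0439). Lin28a passed the filter on low counts through mESC alone, so nothing is read from these Lin28a calls.

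The comparison of fractions asks where in the cell each RNA was relatively enriched. In mESC, Lin28a, L1td1, Trim71, Dppa5a and Tdh were lower in chromatin than in the cytoplasm, and Lin28b was higher. Of all tested genes, 77.5% were called between chromatin and cytoplasm, 66.3% between nucleoplasm and chromatin and 63.1% between nucleoplasm and cytoplasm. The chromatin to cytoplasm log2 fold change was -4.63 ± 0.21 for Dppa5a (edgeR adjusted p = 3.19e-11) and -3.96 ± 0.26 for Lin28a (8.05e-13). For L1td1 it was -1.81 ± 0.31 (0.000103) and for Tdh -1.76 ± 0.15 (3.17e-10), by the same test. Lin28b stood on the other side at 2.38 ± 0.24 (1.56e-09). The median of the members was -1.78, against 0.36 over all tested genes. Lin28a and Dppa5a also had the steepest rise from chromatin to nucleoplasm, at 2.57 ± 0.24 and 4.11 ± 0.20, with L1td1 at 1.07 ± 0.31 and Tdh at 0.60 ± 0.14. Under total-count scaling the L1td1 and Tdh calls were lost, at 0.50 (edgeR adjusted p = 0.144) and 0.03 (0.849). In that comparison 4 members were higher and 1 lower, with a median of 0.84 against -0.16 over all genes. Between nucleoplasm and cytoplasm 5 members were lower and 1 higher. That call was near the threshold for L1td1, at -0.75 ± 0.31 (edgeR adjusted p = 0.0457), and was lost without nucleoplasm replicate 1 (-0.45) or 2 (-0.80) or cytoplasm replicate 2 (-0.74) or 3 (-0.46). For Dppa5a, at -0.52 ± 0.18 (0.0211), it was lost without nucleoplasm replicate 2, at -0.47.

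Lin28b is described separately, and no difference between members was tested. In mESC it was lower in the nucleoplasm than in chromatin, at -0.69 ± 0.23 (edgeR adjusted p = 0.0106), and higher there than in the cytoplasm, at 1.70 ± 0.24 (8.59e-07). Its nucleoplasm to chromatin call in mESC was lost without chromatin replicate 2, at -0.49 (adjusted p = 0.0881), without nucleoplasm replicate 1, at -0.47 (0.0708), and on rescaled TPM, at -0.03 (0.924). In mCtx it was higher in chromatin than in the cytoplasm by 2.92 ± 0.27 (edgeR adjusted p = 1.59e-10), with a nucleoplasm to chromatin value of -0.75 ± 0.24 (0.00906) and a nucleoplasm to cytoplasm value of 2.18 ± 0.26 (7.77e-08). The long introns of Lin28b enter its counts, and their part in these values was not tested. The ratio of chromatin to cytoplasm in mESC was 5.20 in CPM and 4.83 in TPM. In mCtx it was 7.62 in CPM and 11.6 in TPM. On both scales the chromatin and cytoplasm libraries of Lin28b did not overlap in either cell type. In the mCtx fractions 73.3% of tested genes were called between chromatin and cytoplasm, 57.1% between nucleoplasm and chromatin and 58.2% between nucleoplasm and cytoplasm. Of the 2 members with enough counts in mCtx, Lin28b and Trim71, both were higher in chromatin than in the cytoplasm and both were lower in the nucleoplasm than in chromatin.

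**Figure D2:**
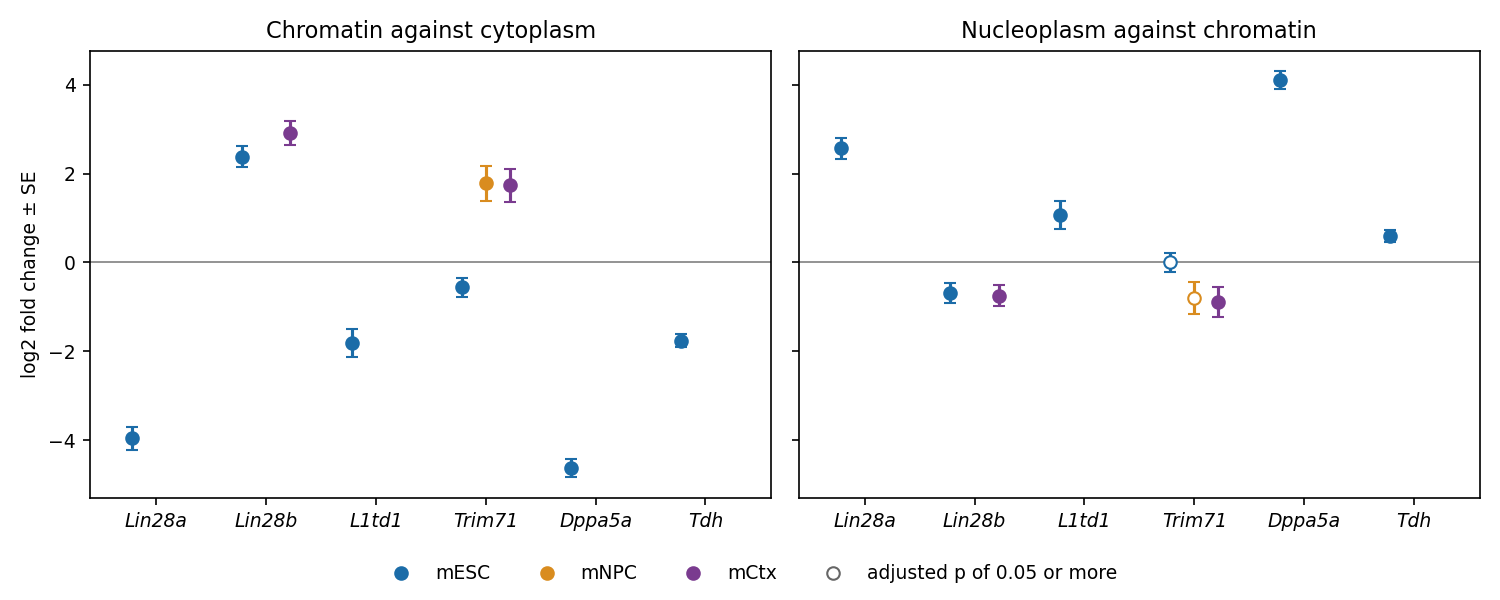
Log2 fold change with its SE (edgeR, 3 libraries a group) between chromatin and cytoplasm (left) and nucleoplasm and chromatin (right), for each gene and cell type with more than 9 counts; comparisons with mNPC Lin28a, at 11 counts or fewer, are not drawn. Filled points passed an adjusted p of 0.05. Lin28b lies above 0 on the left in mESC and mCtx, and Trim71 lies below 0 in mESC at -0.56 and above 0 in mNPC and mCtx at 1.78 and 1.74.

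The Trim71 fraction values in mESC were small in CPM and depended on the measure. Its chromatin value was -0.56 ± 0.22 against the cytoplasm (edgeR adjusted p = 0.0212), and its nucleoplasm value was 0.00 ± 0.22 against chromatin (1.0) and -0.56 ± 0.22 against the cytoplasm (0.0274). The last of these was lost without nucleoplasm replicate 1 (-0.40) or cytoplasm replicate 2 (-0.56) or 3 (-0.40). The chromatin and cytoplasm libraries of Trim71 overlapped in CPM. The chromatin to cytoplasm call was lost under total-count scaling, at -0.09 (adjusted p = 0.723), without chromatin replicate 1, at -0.29 (0.174), and without cytoplasm replicate 3, at -0.40 (0.117). The nucleoplasm to chromatin value turned with the measure, at -0.56 under total-count scaling (edgeR adjusted p = 0.028) and 1.11 on log2(TPM + 1) (limma adjusted p = 0.000174). In TPM, where introns and the uncounted 3′ end are treated differently, the chromatin to cytoplasm ratio in mESC was 0.291 and the libraries did not overlap, against 0.678 in CPM.

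In neural cells Trim71 leaned the other way in the counts, towards chromatin. In mNPC the chromatin to cytoplasm value was 1.78 ± 0.39 (edgeR adjusted p = 0.000211), and in mCtx 1.74 ± 0.37 (0.000165). The ratio of mean levels was 3.45 in CPM and 3.70 in TPM for mNPC, and 3.41 in CPM and 2.75 in TPM for mCtx, with no overlap between libraries on either scale. On TPM rescaled by the median ratio between libraries, this lean was lost, at 0.11 in mNPC (limma adjusted p = 0.532) and 0.00 in mCtx (1.0). That setting also adds 1 before the log, and Trim71 here is below 1 TPM before rescaling. The part of the rescaling itself was not tested. On log2(TPM + 0.1) both calls were kept, but the chromatin to cytoplasm median over all genes was itself 0.90 in mNPC and 2.08 in mCtx. In the counts that median was 0.06 and 0.00. The TPM ratios and their lack of overlap are therefore not read as a lean of Trim71. Of tested genes in mNPC, 69.5% were called between chromatin and cytoplasm, 66.1% between nucleoplasm and chromatin and 50.1% between nucleoplasm and cytoplasm. On log2(TPM + 1) the Trim71 differences shrank to 0.12 (limma adjusted p = 0.695) in mNPC and 0.18 (0.484) in mCtx, since its TPM there is below 1 and the added 1 dominates. Trim71 was lower in mCtx nucleoplasm than in chromatin, at -0.89 ± 0.34 (edgeR adjusted p = 0.0293), a call lost without any one of chromatin replicates 1 or 2 or nucleoplasm replicates 2 or 3, at -0.72 to -0.87. The remaining Trim71 comparisons had adjusted p above 0.05: -0.80 ± 0.36 (0.0554) for nucleoplasm to chromatin and 0.98 ± 0.44 (0.0694) for nucleoplasm to cytoplasm in mNPC, and 0.85 ± 0.40 (0.073) for nucleoplasm to cytoplasm in mCtx. With the replicate number as a block these 3 values were -0.84 (0.0188), 0.96 (0.0368) and 0.85 (0.0352), all below 0.05. Leaving out nucleoplasm replicate 3 also made the first of them pass, at -1.24 (0.0143), and leaving out nucleoplasm replicate 1 or cytoplasm replicate 2 the second, at 1.20 (0.0365) and 1.35 (0.0371). Lin28a in mNPC, at 11 counts in chromatin and 3 in the cytoplasm, gave 1.79 ± 1.18 (edgeR adjusted p = 0.182).

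Whether the chromatin to cytoplasm ratio itself differed between cell types was tested as a difference of 2 contrasts in the same fit. Trim71 had a higher ratio in mNPC than in mESC by 2.35 ± 0.45 on the log2 scale (edgeR adjusted p = 0.000125) and in mCtx than in mESC by 2.30 ± 0.43 (7.28e-05). Between mCtx and mNPC its ratio differed by -0.04 ± 0.53 (1.0). Lin28b had a ratio 0.54 ± 0.35 higher in mCtx than in mESC (edgeR adjusted p = 0.204), which passed at log2(TPM + 0.1), at 1.15 (limma adjusted p = 0.038), and with the replicate block set within cell type, at 0.55 (edgeR adjusted p = 0.00269), but not with 1 block across cell types. Lin28a gave a fitted value of 5.75 between mNPC and mESC, but it was kept by the filter through mESC alone, and its mNPC libraries held 7, 2 and 2 counts in chromatin and 1, 2 and 0 in the cytoplasm, so nothing is read from it. Of all tested genes, 40.2% were called for the ratio between mNPC and mESC, 50.2% between mCtx and mESC and 34% between mCtx and mNPC. The median over all genes was -0.22, -0.42 and -0.20. That median depends on the measure for mCtx against mESC, at 0.65 on log2(TPM + 1), 0.21 on rescaled TPM and -1.43 under total-count scaling. The Trim71 value lay between 1.27 and 2.63 over its 24 alternatives, lowest under total-count scaling. The comparisons with mESC share the same mESC libraries.

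**Figure D3:**
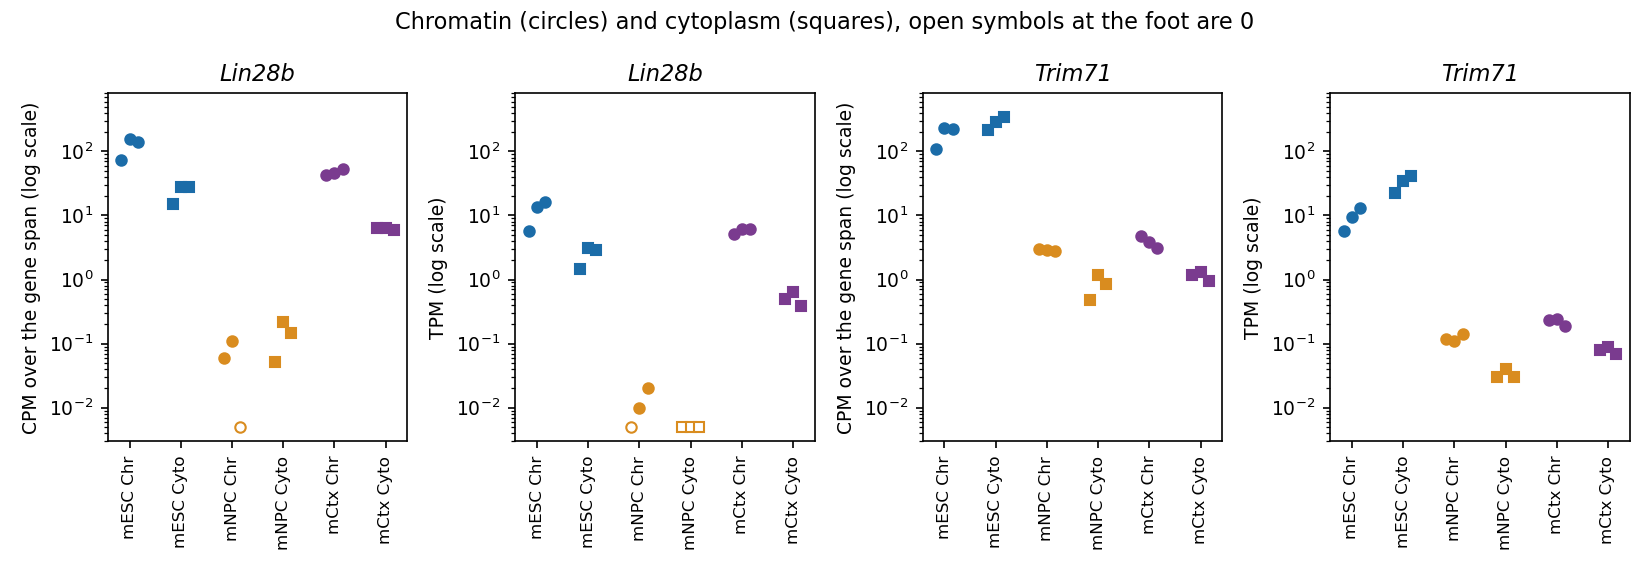
Lin28b and Trim71 in each chromatin (circle) and cytoplasm (square) library, as CPM over the gene span and as TPM (log axes, open symbols at the foot for 0). Chromatin lies above cytoplasm for Lin28b in mESC and mCtx on both scales, while Trim71 goes from a ratio of 0.678 (CPM) or 0.291 (TPM) in mESC to 2.75 or more in mNPC and mCtx. On the log2 of TPM rescaled by the median ratio, with 1 added, the mNPC and mCtx differences for Trim71 were 0.11 and 0.00. On log2(TPM + 0.1) the chromatin to cytoplasm medians over all genes were 0.90 in mNPC and 2.08 in mCtx.

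The members were not equally affected by the mESC replicate that stood apart. Replicate 1 was the lowest of the 3 in chromatin, nucleoplasm and cytoplasm for Lin28a, Lin28b, L1td1 and Trim71. For Dppa5a and Tdh it was the highest in chromatin and the middle one in the other 2 fractions. Without all 3 mESC libraries numbered 1, Lin28b in mCtx was -1.65, -1.64 and -2.13 against mESC in chromatin, nucleoplasm and cytoplasm, and the Trim71 ratio was 2.21 for mNPC and 2.14 for mCtx, all still called by edgeR. The Trim71 chromatin to cytoplasm value in mESC was then -0.44 ± 0.14 (edgeR adjusted p = 0.00547), and the Lin28b ratio between mCtx and mESC was 0.48 ± 0.18 (0.0276). No member lost a call in this setting, which was chosen after seeing the data.

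The let-7 genes themselves were covered thinly. Of 12 let-7 family genes 6 passed the filter on low counts, and their rows of about 100 bases read primary transcripts and precursors, not mature microRNA. In chromatin 4 were higher in mNPC than in mESC and none was lower, and in mCtx 4 were higher and 2 lower, beside 76.5% and 80.3% of all tested genes called in either direction. These counts depend on the processing. In a fit of the compared groups alone 2 were higher in each comparison, and on log2(TPM + 1) 2 were lower in mNPC and 0 in mCtx. Mirlet7a-2, Mirlet7b, Mirlet7c-1 and Mirlet7c-2 held at most 2 counts in any mESC library, so they passed the filter through neural groups alone. Mirlet7d and Mir98 passed it through mESC and mNPC. The higher calls and the lower mCtx calls therefore add no support to the counts. Mirlet7c-1 had 0 counts in all 3 mESC chromatin libraries, 47, 50 and 44 counts in mNPC and 33, 27 and 23 in mCtx. That is 2.86 ± 0.161 CPM in mNPC and 2.32 ± 0.561 in mCtx (SD, n = 3), with no overlap with mESC. Mirlet7c-2, whose loop lacks GGAG, had 1, 0 and 0 counts in mESC and 18, 9 and 18 in mNPC, a log2 fold change of 5.22 ± 0.91 (edgeR adjusted p = 1.61e-05). Mirlet7a-2 went from 0 counts in mESC to 18, 19 and 14 in mCtx, with 3, 1 and 0 in mNPC. Mirlet7d fell in mCtx chromatin from 2.01 ± 0.590 to 0.293 ± 0.182 CPM, a log2 fold change of -2.71 ± 0.51 (edgeR adjusted p = 3.38e-05), and Mir98 fell with -1.45 ± 0.46 (0.00648). The TPM table listed Mirlet7d at 0 in all chromatin libraries, and the Mir98 call was lost on log2(TPM + 1), at -0.96 (limma adjusted p = 0.0753).

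Of 5 let-7 host transcripts, 3 were in the count table. Mir99ahg, the long noncoding host of the miR-99a and let-7c cluster, was at 0.737 ± 0.599 CPM in mESC chromatin, 1254 ± 105 in mNPC and 664 ± 105 in mCtx (SD, n = 3). Its log2 fold changes were 10.72 ± 0.36 and 9.81 ± 0.36, with edgeR adjusted p of 4.07e-18 and 9.06e-18. Mir99ahg passed the filter on low counts through the neural groups, so these p-values add no support to the counts. The counted span of Mir99ahg, chr16:77329259-77598444, ends 1212 bases before Mirlet7c-1 begins, so their reads are counted separately. Huwe1, the host of Mir98 and Mirlet7f-2 on the X chromosome, fell in chromatin, at -0.57 ± 0.15 in mNPC and -0.76 ± 0.15 in mCtx, the latter at -0.40 on log2(TPM + 1) (limma adjusted p = 0.123). Wdr82, the host of Mirlet7g, fell in mCtx, at -0.81 ± 0.10. Both Lin28b and Mir99ahg were present in mCtx chromatin. In mNPC chromatin Mir99ahg was higher still by its mean, while Lin28b had 3 counts over 3 libraries. The relation between them was not tested.

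**Figure D4:**
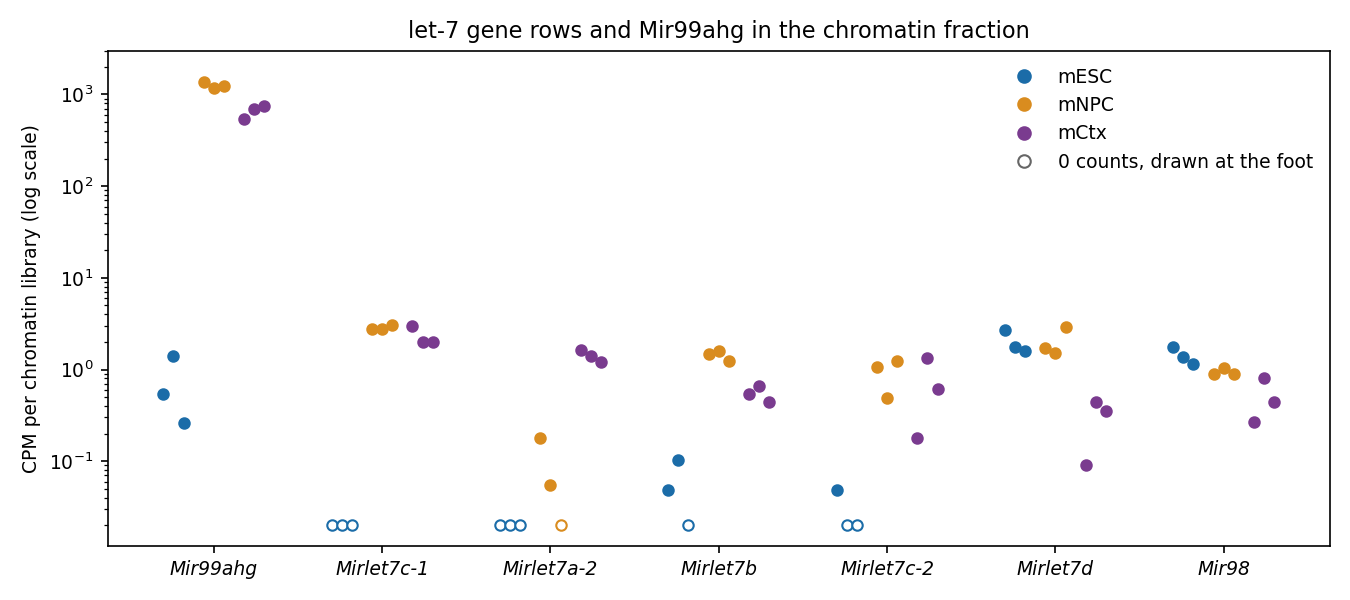
CPM (log scale) of Mir99ahg and the 6 tested let-7 family genes in each chromatin library, coloured by cell type, with open points at the foot for 0 counts. Mirlet7c-1 has no read in mESC and 23 to 50 counts in each neural library, while Mirlet7d and Mir98 are lowest in mCtx by their group means.

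Of the factors that make and destroy let-7, more were called lower than higher in the cytoplasm of neural cells, but not in every fraction. Of 13 tested genes for let-7 processing, 2 were higher and 9 lower in mNPC cytoplasm, with a median of -0.61, and 2 were higher and 8 lower in mCtx cytoplasm, with a median of -0.67. Of all tested genes 76% and 81.6% were called in these comparisons, in either direction, with medians of -0.07 and -0.05, so the share of this list that was called is near the background. Dicer1, the ribonuclease that cuts the precursor, fell, with log2 fold changes of -2.10 ± 0.12 in mNPC and -1.52 ± 0.12 in mCtx. Xpo5, its exporter, also fell, at -2.02 ± 0.13 and -2.40 ± 0.14. Ago1, an Argonaute that carries the microRNA, rose by 1.61 ± 0.13 and 1.46 ± 0.13. Prkra, a partner of Dicer, rose by 1.37 ± 0.14 and 0.68 ± 0.14. On log2(TPM + 1) both Prkra calls were lost, at 0.37 in mNPC (limma adjusted p = 0.101) and -0.06 in mCtx (0.901). In mCtx 7 of the 13 were higher and 3 lower in the nucleoplasm (median 0.56), and 7 and 4 in chromatin (0.28). In mNPC 4 were higher and 8 lower in the nucleoplasm (-0.80), and 5 and 5 in chromatin (0.14). Of all tested genes, 82.2% and 80.3% were called in these mCtx fractions and 77.2% and 76.5% in those of mNPC, in either direction.

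Known let-7 targets did not move as 1 group. Of 23 tested, 9 were higher and 12 lower in mNPC cytoplasm, with a median of -0.62, and 7 were higher and 15 lower in mCtx cytoplasm, with a median of -0.99. The share called, 21 and 22 of 23, stands beside 76% and 81.6% of all tested genes, and the all-gene medians were -0.07 and -0.05. On log2(TPM + 1) the higher counts dropped to 1 and 4. Igf2bp1, an RNA-binding oncofetal protein, went from 936 ± 191 CPM in mESC to 0.435 ± 0.444 in mNPC and 19.12 ± 0.697 in mCtx (SD, n = 3), log2 fold changes of -10.96 ± 0.42 and -5.61 ± 0.31. Like Lin28b it was lowest in mNPC and intermediate in mCtx. Arid3b, a DNA-binding regulator, fell, at -6.41 ± 0.26 in mNPC and -3.01 ± 0.19 in mCtx, with the same order of cell types. Ccnd2, a cyclin, rose by 4.15 ± 0.46 and 4.61 ± 0.47. Insr, the insulin receptor, rose by 1.77 ± 0.16 in mNPC, and Igf1r, its relative, by 3.03 ± 0.22 in mCtx. The Insr call was lost on log2(TPM + 1), at 0.25 (limma adjusted p = 0.287). The largest edgeR adjusted p of these target values was 8.47e-09.

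Of the genes of threonine, glycine and folate metabolism around Tdh, more were called lower than higher. Of 17 tested, 2 were higher and 11 lower in mNPC cytoplasm, with a median of -1.56, and 1 was higher and 16 lower in mCtx cytoplasm, with a median of -2.80. All tested genes had medians of -0.07 and -0.05, with 76% and 81.6% called, so the share of the list called in mNPC is that of the background. Shmt1, a serine hydroxymethyltransferase, fell, at -4.17 ± 0.20 in mNPC and -5.38 ± 0.22 in mCtx. Mthfd1l, a mitochondrial folate enzyme, fell likewise, at -2.68 ± 0.17 and -4.48 ± 0.19. Its relative Mthfd2l rose by 2.92 ± 0.30 and 2.40 ± 0.30. Dld, a subunit of the glycine cleavage system and of other complexes, rose by 0.54 ± 0.12 in mNPC (edgeR adjusted p = 0.000278) but was at -0.33 on log2(TPM + 1) (limma adjusted p = 0.269).

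Relatives of the members by protein family were unlike each other. Of 5 KH-like relatives of Dppa5a, 2 could be tested, and both fell in mNPC and mCtx cytoplasm. Khdc3, an oocyte and embryo factor, was at 33.3 ± 16.4 CPM in mESC and had 0 counts in both neural cell types. Ooep went from 36.7 ± 7.16 CPM to 2 counts in mNPC and 5 in mCtx, over 3 libraries each. Of 3 other TRIM-NHL genes, Trim2 was lower in mNPC, at -1.09 ± 0.16 on the log2 scale, and higher in mCtx by 2.54 ± 0.17, and Trim3 was higher in mCtx by 2.15 ± 0.13. All 3 were higher in mCtx. Trim32 was higher in mNPC by 0.69 ± 0.15 (edgeR adjusted p = 0.000161), but at -0.01 on log2(TPM + 1) (1.0, limma). Of 11 other RNA-binding genes of stem and germ cells, 9 were lower and none higher in mNPC cytoplasm, with a median of -5.22, and 8 were lower and 1 higher in mCtx, with a median of -4.78. Of all tested genes 76% and 81.6% were called in these cytoplasm comparisons, in either direction, with medians of -0.07 and -0.05. The share of these 11 genes that was called is near that background. Tex19.1 went from 137 ± 21.7 CPM in mESC to 1 count in mNPC and 0 in mCtx. Esrp2, a splicing regulator of epithelial cells, went from 13.5 ± 0.671 CPM to 0 in both. Nanos1, a translational repressor, rose in mCtx by 2.31 ± 0.20 (edgeR adjusted p = 3.76e-11).

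**Figure D5:**
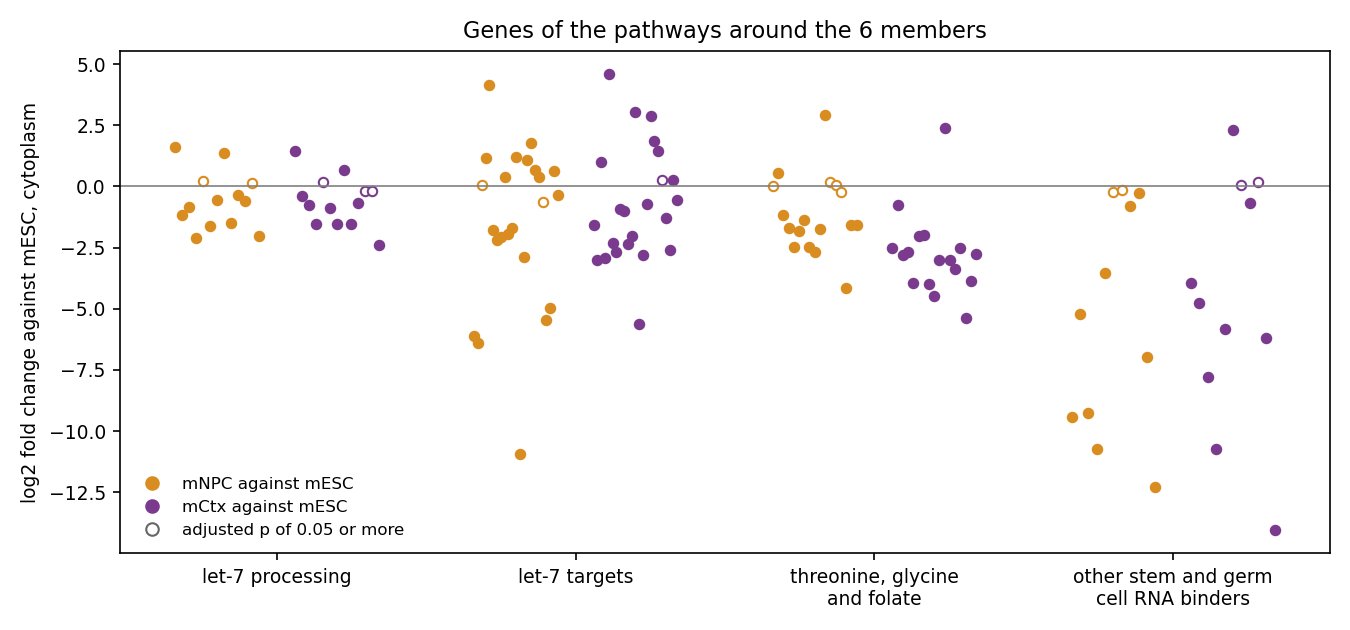
Log2 fold change in the cytoplasm against mESC for each tested gene of 4 lists around the 6 genes, in mNPC and mCtx (edgeR, 3 libraries a group); open points have an adjusted p of 0.05 or more. Values for genes at 0 counts in a neural group, such as Tex19.1 and Esrp2, depend on the prior count of the fit and are no bound; let-7 targets lie on both sides of 0, from Igf2bp1 at -10.96 to Ccnd2 at 4.61.

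As a description, the genes most like each member were taken as those with the highest Pearson r over the 9 group means of log2(CPM + 0.5), among genes with a mean of 10 CPM or more. The 9 points share libraries and cell types, so r is high wherever a gene is limited to stem cells. Lin28a was most like Pou5f1 (r = 0.9985), Tcl1 (0.9978) and Ifitm1 (0.9971). L1td1 was most like Trim6 (0.9999), Dppa4 (0.9997) and Tdh (0.9997), and Tdh most like Dppa4 (0.9999), Trim6 (0.9997) and Dppa2 (0.9997). Dppa5a was most like Ifitm1 (0.9991), Utf1 (0.9975) and Gm14165 (0.9972), and Trim71 most like Esrrb (0.9932), Hells (0.9924) and Tcf7 (0.9923). Lin28b was most like Mme (0.9857), Zmat4 (0.9841) and Prex2 (0.9841), none of them a stem cell marker in the list used here. By their group means, those 3 genes were higher in mESC and mCtx than in mNPC, and higher in chromatin than in the cytoplasm of mESC and mCtx. Among member pairs, Lin28a and Lin28b had r = 0.555 over the 9 groups, and Lin28b had 0.577 to 0.676 with the other 4. All pairs without Lin28b were at 0.959 or above.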

How the data were processed

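The authors deposited whole-number counts per gene over its full span, and TPM values (transcript levels). The authors deposited the chromatin columns as whole numbers too, made in the same table, and these are recorded here under the unit expected count (an estimated count) only because of how their names were read, so no value was rounded. STAR, featureCounts and kallisto are named without versions or roles, with build mm10, per the submitters' processing notes; rules for strand and multiply mapped reads are not given in the sources used here. From the counts, a model with 1 coefficient for each of 9 groups was fitted to 27 libraries with edgeR 4.0.16 in R 4.3.3 (TMM scaling, filterByExpr, 18249 genes, glmQLFit and glmQLFTest), with Benjamini-Hochberg adjustment at 0.05 within each contrast; the script was tested on simulated data. No column was left unmapped. Alternatives used DESeq2 1.42.0, other scalings, no filter, only the compared groups, limma 3.58.1 on log2(TPM + 1) and log2(TPM + 0.1), a replicate block, and each library left out.

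Members and lists were chosen with earlier results of these data known. Named genes were the 6 members, the 2 called genes with the largest change in each direction per list, the 3 genes most like each member, and genes overlapping a member. Same-numbered mESC libraries deviated together between fractions (r = 0.388 to 0.751), which pairs them; in mNPC and mCtx some pairs were below 0.1. Sequences came from GENCODE vM21 and RefSeq.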

Additional observations from a re-analysis of the deposited data

Results flagged for a closer look

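The chromatin to cytoplasm ratio of Trim71 differed between cell types in a direct test of the difference (edgeR quasi-likelihood test, Benjamini-Hochberg). It was higher by 2.35 on the log2 scale in mNPC than in mESC (adjusted p = 0.000125) and by 2.30 in mCtx than in mESC (7.28e-05). All 3 chromatin libraries lay above all 3 cytoplasm libraries in mNPC and in mCtx, in CPM and in TPM, while in mESC they overlapped in CPM and lay below them in TPM. Under total-count scaling the mCtx value was 1.27 (0.0141). Both values rest on 43 to 144 neural counts over 3 libraries. On log2(TPM + 0.1) the chromatin to cytoplasm median over all genes was itself 0.90 in mNPC and 2.08 in mCtx. The order of the neural libraries in TPM is therefore not read as particular to Trim71.

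The fitted ratio of Lin28a was higher by 5.75 in mNPC than in mESC. Lin28a entered the test through its mESC level alone, its mNPC fractions held 11 and 3 counts, and chromatin and cytoplasm within mNPC differed by 1.79 ± 1.18 (edgeR adjusted p = 0.182), so the value carries no reading. Groups of 3 libraries are too small for a test of single outlying values.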

How the results depend on the processing

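Over 39 alternatives, 57 of 77 member results kept their direction and their side of the threshold, and 20 changed in at least one. Of all tested genes, 66% to 82.2% were called in a comparison of cell types, 50.1% to 77.5% in 1 of fractions and 34% to 50.2% in 1 of the ratio, in either direction. Members called between cell types numbered 3 higher (2 to 4 over the alternatives) and 36 lower (36 to 37). Between fractions they were 10 higher (8 to 12) and 13 lower (9 to 14). For the ratio they were 3 higher (3 to 4), among them the Lin28a value that carries no reading, and 0 lower. With the replicate block they were 3 and 37, 12 and 14, and 3 and 0; beyond the 3 Trim71 values in the results, the block added a call for Lin28a in chromatin between mCtx and mNPC (-2.72, adjusted p = 0.0421) and removed none. The direction of a member turned in 3 cases, all for Trim71. From chromatin to nucleoplasm in mESC its value was -0.56 under total-count scaling. The rest were in mCtx on TPM rescaled by the median ratio, a setting that also adds 1 to values that are below 1 TPM before rescaling. They were 0.00 between chromatin and cytoplasm and 0.01 between nucleoplasm and chromatin. The nucleoplasm to cytoplasm call of L1td1 in mESC was lost in 9 alternatives, for example without nucleoplasm replicate 1 (-0.45) or cytoplasm replicate 3 (-0.46), that of Trim71 without nucleoplasm replicate 1 (-0.40), cytoplasm replicate 2 (-0.56) or 3 (-0.40), and that of Dppa5a without nucleoplasm replicate 2 (-0.47). Under total-count scaling the nucleoplasm to chromatin values of L1td1 (0.50) and Tdh (0.03) in mESC and Lin28b (-0.50) in mCtx also lost their calls.

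Among list genes, 3 turned on TPM: Prkra in mCtx (-0.06, and -0.07 with 0.1 added), Dld in mNPC (-0.33 and -0.35) and Trim32 in mNPC (-0.01 with either), all against mESC in the cytoplasm. Total-count scaling shifted the median of all genes by -1.01 to 0.46 and log2(TPM + 1) by -0.60 to 1.23, and changes are read relative to these shifts. Over all genes, the number called moved by more than 1.5 times in 28 of 233 comparisons under other settings, 27 of them on TPM, at most from 6204 to 19673 for the ratio between mCtx and mNPC, where 35.9% of calls were higher in the counts, 95% on log2(TPM + 1) and 5.5% under total-count scaling. No library left out moved such a count by as much. The causes were not tested.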
